A study of Mus musculus with 7 samples.

Results

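The salt-inducible kinases, AMP-activated protein kinase (AMPK) and the kinases that switch them on were read in whole-hypothalamus RNA of mice lacking Creb in Pomc-expressing cells. Members were all probe sets that the array annotation gives to a single symbol, that symbol being Sik1, Sik2, Sik3, Prkaa1, Prkaa2, Prkab1, Prkab2, Prkag1, Stk11 or Camkk2. This gave 26 probe sets of 10 genes, out of 45037 probe sets and 18193 genes in all. The study ran 7 Affymetrix mouse430_2 arrays on hypothalami dissected at 3 months of age. The 4 control arrays are labelled wild type, with no allele named. The 3 arrays called knockout here are labelled Creb-PomcCre-/-, in which a Cre driven by Pomc deletes Creb in the arcuate neurons that make the appetite-suppressing melanocortin peptides. These neurons are a small part of the tissue, so that their transcripts are diluted by those of all other cells. In such tissue, fewer cells of a type and less RNA per cell cannot be told apart. Replicates are labelled biological, and whether a sample pools several mice is not given in the labels. The comparison asks how the hypothalamic kinases that govern CREB coactivators and energy sensing stand when Creb is missing from Pomc cells.

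Salt-inducible kinases hold the CRTC coactivators of CREB and the class IIa histone deacetylases in the cytoplasm. Cyclic AMP, acting through protein kinase A, blocks these kinases. Sik1 is itself a gene that CREB induces, which closes a feedback loop. AMPK is a trimer of a catalytic alpha, a scaffolding beta and a nucleotide-binding gamma subunit that senses a fall in cellular energy. In the hypothalamus, active AMPK is known to favour feeding. The kinase LKB1, encoded by Stk11, phosphorylates the activation loop of both families, and Camkk2 activates AMPK when calcium rises.

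Because CREB binds the cyclic AMP response element, whose full palindrome is TGACGTCA and whose core is TGACG, the promoters of the kinase genes were searched for these letters on both strands. RefSeq windows of 300 bases on GRCm38.p6, from 250 before to 50 after the start, were found for 9 of the 10 genes, with no window for Sik1. The palindrome was in 0 of the 9 windows, against 1.79% of all 32851 windows. The core, which the palindrome contains, was in 5 of the 9 (Sik2, Sik3, Prkaa2, Prkag1 and Stk11), against 20.8% of all windows, and in 2 of the 9 within the last 150 bases before the start, against 13.3%. Sik3 had 3 cores, beginning 133, 116 and 57 bases before the start. Sik2 had 2, one beginning 1 base before the start and one, on the opposite strand, beginning 12 bases after it. Starts here are those of the windows, which for some genes differ from the gene positions given below. By its gene position Sik2 reaches 51009132, so that its window's start and both of its cores lie within the gene. Both windows are shown because Sik3 and Sik2 are the CRTC kinases whose brightest probe sets had all knockout values below all wild-type values. The Sik2 gap was only 0.00027, and 5.02% of all probe sets lay below without overlap. Of the other genes with the core, Prkag1 and Stk11 differed by 0.082 and 0.013 and Prkaa2 by -0.10 (brightest probe sets, knockout minus wild type, log2). Capitals mark the core on either strand. The Sik3 window lies on the plus strand at chr9:46012570-46012869 and the Sik2 window on the minus strand at chr9:51009024-51009323. A match is a description of letters, not of a bound site.
Sik3: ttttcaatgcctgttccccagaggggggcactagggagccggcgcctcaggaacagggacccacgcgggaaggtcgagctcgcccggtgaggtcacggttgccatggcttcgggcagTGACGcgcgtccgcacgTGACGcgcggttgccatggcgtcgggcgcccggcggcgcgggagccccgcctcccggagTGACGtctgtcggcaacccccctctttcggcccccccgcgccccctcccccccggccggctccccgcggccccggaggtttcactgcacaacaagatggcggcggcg
Sik2: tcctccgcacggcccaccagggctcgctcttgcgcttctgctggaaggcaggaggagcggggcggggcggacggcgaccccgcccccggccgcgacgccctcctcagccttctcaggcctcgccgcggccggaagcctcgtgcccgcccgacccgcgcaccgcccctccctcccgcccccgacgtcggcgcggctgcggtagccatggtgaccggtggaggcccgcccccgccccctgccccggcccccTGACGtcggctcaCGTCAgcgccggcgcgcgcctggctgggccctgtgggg

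None of the 26 probe sets passed an adjusted p of 0.05 (limma over all probe sets, where 0.00666% were called), and 0 of the 10 genes did so over all genes (0.011% called). The members' differences ran in both directions, with 12 probe sets above and 14 below 0, where 53.2% and 46.8% of all probe sets lay. Among the brightest probe sets of the 10 genes, that of Sik3 had the largest difference. At an unadjusted p under 0.05 there were 0 higher and 4 lower probe sets, against 5.55% higher and 5.07% lower over all probe sets. The 4 were a probe set each of Sik2 and Sik3 and a pair of Camkk2. Over genes, with the brightest probe set standing for each, Sik3 and Camkk2 reached that p, both lower, against 5.6% of all genes higher and 6.12% lower. Brighter genes lay lower in general: among the 8066 genes with a mean log2 level of at least 8, 9.98% were lower at that p. The median difference over the 10 genes was 7.9e-05 on the log2 scale, beside 0.0036 over all genes.

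**Figure D1:**
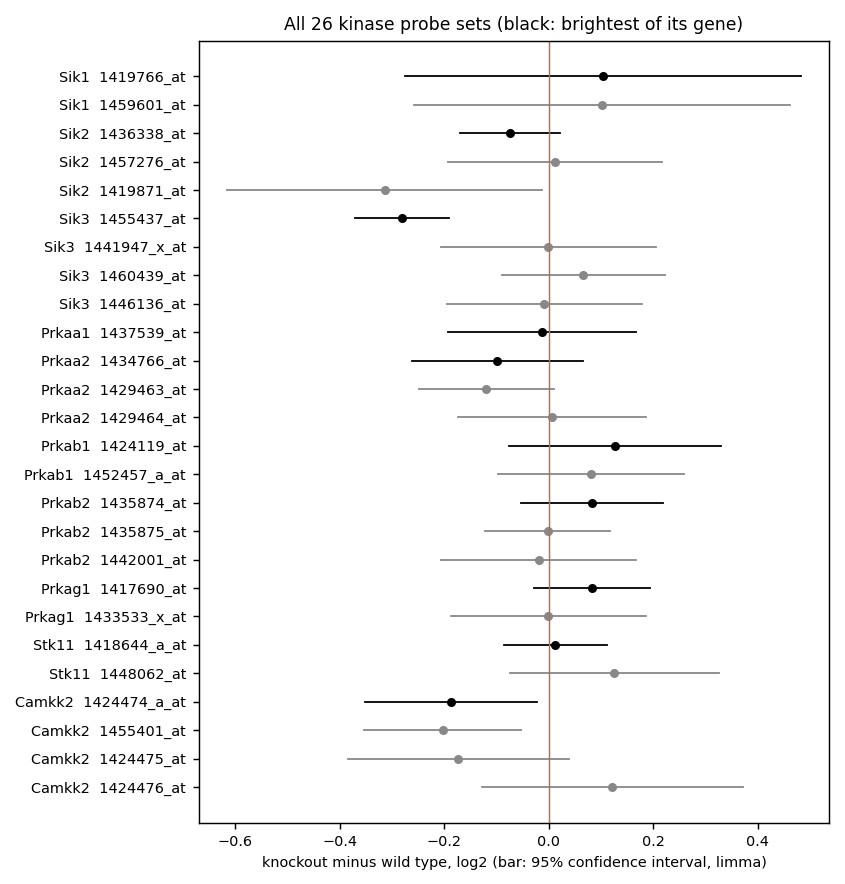
Knockout minus wild-type log2 difference of each of the 26 probe sets (point) with its 95% confidence interval from limma (bar), the brightest probe set of each gene in black. Intervals that exclude 0 are those of a Sik3 probe set at -0.28, of Camkk2 probe sets at -0.19 and -0.20 and of a dim Sik2 probe set at -0.31, before adjustment for the number of probe sets tested.

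Sik3 encodes the broadly expressed member of the salt-inducible family and lies at chromosome 9, 46012820 to 46224194 in the RefSeq table of GRCm38.p6, the source of all gene positions given here. Its brightest probe set, 1455437_at, read 11.05, 11.18, 11.16 and 11.14 in the wild-type arrays on the log2 scale and 10.85, 10.84 and 10.86 in the knockout arrays. All 3 knockout values lay below all 4 wild-type values, by a gap of 0.18, and the knockout arrays differed little among themselves. The group means were 11.13 ± 0.060 (SD, n = 4) and 10.85 ± 0.011 (SD, n = 3), which put the knockout at 0.823 of the wild-type level. The log2 difference was -0.28 ± 0.040 (SE), with a 95% interval of -0.37 to -0.19. It ranked 23rd of 45037 probe sets by p and did not pass (limma, adjusted p = 0.116; over genes, adjusted p = 0.105). Leaving out wild-type array 1 took it past the threshold (-0.31, limma, adjusted p = 0.0384 among probe sets). That setting also raised the calls over all probe sets from 3 to 46, or 0.102%, so that the gain was not limited to Sik3. In the 16 other settings tried it lay between -0.29 and -0.24 and did not pass (limma, adjusted p up to 0.849). These settings count the fit without wild-type array 4 a further time, as that of the arrays numbered 1 to 3. Xist and Y-linked transcripts marked wild-type arrays 1 and 4 and knockout array 1 as female. The difference was -0.32 in males and -0.24 in females.

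The other Sik3 probe sets gave differences near 0. Probe set 1441947_x_at, whose suffix marks probes that may also match other transcripts, read 9.98, 9.76, 10.06 and 9.65 in wild type and 9.88, 9.84 and 9.87 in the knockout. Its wild-type arrays enclosed the knockout arrays, and the difference was -0.00068 ± 0.091 (SE). Probe set 1460439_at read 9.74, 9.53, 9.68 and 9.48 against 9.74, 9.67 and 9.61, a difference of 0.066 ± 0.069 (SE). Probe set 1446136_at, a dimmer one, read 5.20, 5.12, 5.37 and 5.15 against 5.16, 5.16 and 5.28, a difference of -0.0082 ± 0.083 (SE). These 3 were higher in wild-type arrays 1 and 3 than in wild-type arrays 2 and 4, whereas 1455437_at was lowest in wild-type array 1. The brightest probe set minus the mean of the other Sik3 probe sets differed between the genotypes by -0.30, and an exact two-sided permutation test over the 35 splits of the arrays gave p = 0.0571, or 0.257 after Benjamini-Hochberg adjustment over the 9 genes with several probe sets. The smallest p this test can give is 0.0286, so that a single gene among 9 could not pass. With the mean of its 4 probe sets standing for the gene, Sik3 differed by -0.056 (limma, adjusted p = 0.740). The positions of these probe sets along the Sik3 transcripts were not used here.

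**Figure D2:**
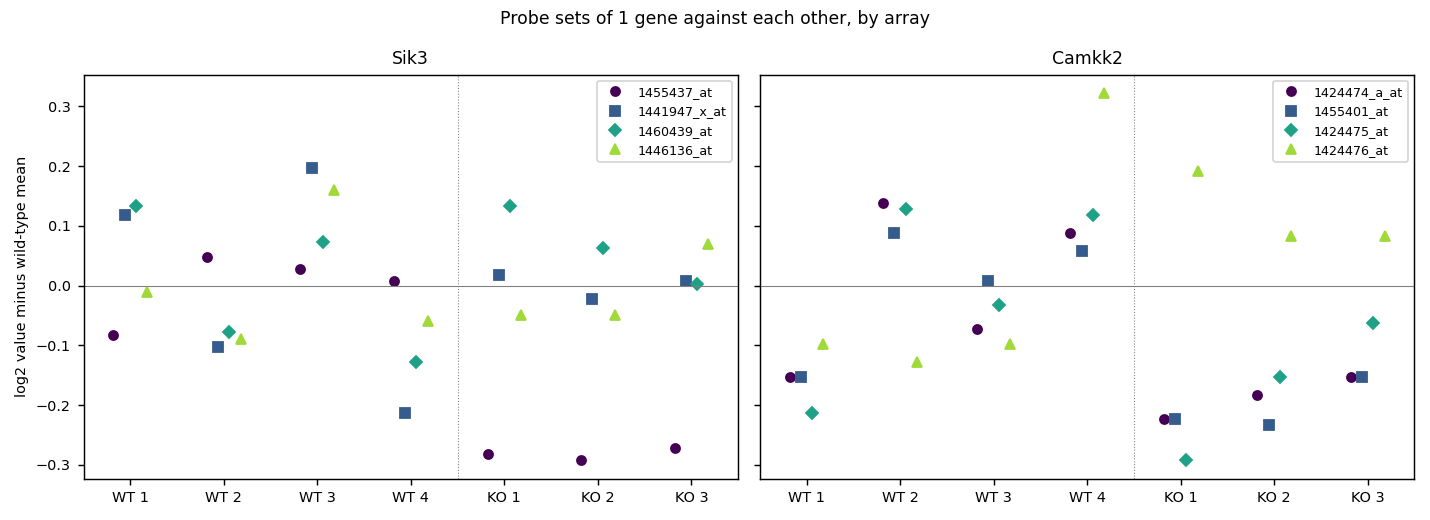
Log2 value minus the wild-type mean of the same probe set (vertical axis) in each array (horizontal axis, WT wild type, KO knockout), for the 4 probe sets of Sik3 and the 4 of Camkk2. In Sik3, 1455437_at alone sits below the wild-type arrays in all 3 knockout arrays, whereas in Camkk2 the 3 brighter probe sets lie below the wild-type mean in every knockout array.

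Genes with the array profile most like that of the brightest Sik3 probe set were then listed. By the mean absolute difference of centred log2 values over the 7 arrays, among 12161 genes with a mean of at least 6, the nearest were Myh9 (0.026), Adgrl1 (0.028), Aifm3 (0.029), Trio (0.033) and Kmt2d (0.034). Myh9 encodes a nonmuscle myosin heavy chain, Adgrl1 a latrophilin adhesion receptor, Trio a guanine nucleotide exchange factor and Kmt2d a histone methyltransferase. Their own log2 differences ran from -0.34 for Kmt2d to -0.22 for Aifm3. These genes were picked for matching Sik3 in every array, so that differences near its own follow from the choice.

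Sik2, at chromosome 9, 50889644 to 51009132, encodes a kinase of CRTC coactivators known from adipose tissue and brain. Its brightest probe set, 1436338_at, read 9.66, 9.69, 9.71 and 9.69 in wild type and 9.57, 9.61 and 9.66 in the knockout. The groups did not overlap, but the gap between them was only 0.00027, between wild-type array 1 and knockout array 3. The difference was -0.07 ± 0.042 (SE), with an interval of -0.17 to 0.021 (limma, adjusted p = 0.555). Probe set 1457276_at differed by 0.012 ± 0.091 (SE). The dim probe set 1419871_at read 4.14, 3.83, 4.13 and 4.41 against 3.74, 4.02 and 3.69, with overlap, and differed by -0.31 ± 0.13 (SE) (limma, adjusted p = 0.455). RMA gives no detection call, and at so low a level signal and background cannot be separated.

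Sik1, at chromosome 17, 31844248 to 31855804, is the cyclic AMP-inducible member. Probe set 1419766_at read 6.26, 6.21, 6.59 and 6.64 in wild type and 6.92, 6.32 and 6.34 in the knockout. Knockout array 1 was the highest of all arrays, and the other knockout arrays lay among the wild-type values. The means were 6.42 ± 0.22 (SD, n = 4) and 6.53 ± 0.34 (SD, n = 3), a difference of 0.10 ± 0.17 (SE) with an interval of -0.28 to 0.48 (limma, adjusted p = 0.854). The interval holds changes in either direction. Knockout array 1 is the single female knockout, and the difference was 0.48 in females and -0.070 in males. Without knockout array 1 it was -0.10, the opposite sign. The dim probe set 1459601_at differed by 0.10 ± 0.16 (SE), and knockout array 1 was again its highest value, at 4.16.

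Sik1 was set beside 12 cyclic AMP-induced genes, a list that includes Fos, Egr1 and Nr4a1. The list had 9 genes above and 3 below 0 and a median of 0.12, and 0 passed (limma) or reached an unadjusted p under 0.05. Fos, an immediate early transcription factor, read 10.11, 9.08, 11.36 and 11.03 in wild type and 11.21, 9.54 and 10.98 in the knockout, and the wild-type arrays differed by more among themselves than the group means did. The 3 arrays with the highest Sik1, which were knockout array 1 and wild-type arrays 4 and 3, were also the 3 with the highest list mean, at 8.88, 8.86 and 9.05. The lowest Sik1 and the lowest list mean, 8.13, were both in wild-type array 2. Knockout array 3 combined a low Sik1 with a list mean of 8.84. Of the list, Nfil3, a transcriptional repressor of the clock output, differed by 0.26 ± 0.13 (SE), the neurotrophin gene Bdnf by 0.17 ± 0.092 (SE) and Fosb, a Fos relative, by 0.44 ± 0.33 (SE), and these were the 3 with the smallest p (limma, adjusted p from 0.458 to 0.613).

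**Figure D3:**
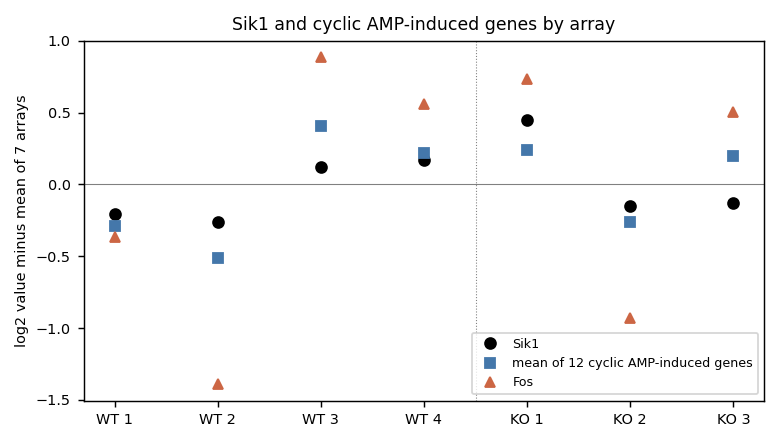
Log2 value minus the mean of all 7 arrays (vertical axis) for Sik1, for the mean of 12 cyclic AMP-induced genes and for Fos, in each array (horizontal axis, WT wild type, KO knockout). The spread among arrays of 1 genotype is wider than the difference between genotypes, and wild-type array 2 is lowest for all 3.

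The genes nearest to Sik1 by the same measure were 2900060N12Rik (0.070), Gstm6 (0.071), Gadd45gip1 (0.072), Fut10 (0.073) and Mboat2 (0.095). None of the 12 induced genes was among them. The measure does not scale values, so a gene that varies more widely lies far from Sik1 even where both rise together. Fos ran from 9.08 to 11.36 over the arrays and Sik1 from 6.21 to 6.92. For such genes, absence here does not show whether they vary with Sik1.

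Camkk2 encodes the calcium- and calmodulin-dependent kinase that activates AMPK, and lies at chromosome 5, 122718380 to 122779522. Its brightest probe set, 1424474_a_at, read 9.19, 9.48, 9.27 and 9.43 in wild type and 9.12, 9.16 and 9.19 in the knockout. Knockout arrays 1 and 2 lay below every wild-type array, and knockout array 3 overlapped with wild-type array 1, both at 9.19. The means were 9.34 ± 0.14 (SD, n = 4) and 9.16 ± 0.036 (SD, n = 3), a difference of -0.19 ± 0.073 (SE) with an interval of -0.35 to -0.022 (limma, adjusted p = 0.426). Probe set 1455401_at read 8.60, 8.84, 8.76 and 8.81 against 8.53, 8.52 and 8.60, and differed by -0.20 ± 0.066 (SE) (limma, adjusted p = 0.370). Its groups were apart by 0.00055. Probe set 1424475_at, designed on the same array accession as the brightest, read 7.96, 8.30, 8.14 and 8.29 against 7.88, 8.02 and 8.11, with overlap, and differed by -0.17 ± 0.094 (SE). The dim probe set 1424476_at, designed on that accession too, differed by 0.12 ± 0.11 (SE). The 3 brighter probe sets thus gave sizes close to each other, and none passed.

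The Camkk2 difference for the brightest probe set was -0.20 in males and -0.19 in females, the latter from 1 knockout array against 2 wild-type arrays. It ranged from -0.24 without wild-type array 1 to -0.14 without wild-type array 2, and averaging its 4 probe sets gave -0.11 (limma, adjusted p = 0.607). The wild-type arrays with the highest Camkk2, arrays 2 and 4, also had the highest means of 8 neuron markers, 11.88 and 11.84, and of 6 thalamus and habenula markers, 9.98 and 9.57. Neuron marker means lay between 11.78 and 11.88 in wild type and between 11.72 and 11.76 in the knockout, with 7 of 8 markers lower. Of the 8, 3 were lower at an unadjusted p under 0.05 (limma), among them Rbfox3 at -0.18. The share lower at that p was 6.12% of all genes and 9.98% of those with a mean of at least 8. Thalamic means ran from 8.76 to 9.98 in wild type and from 8.86 to 9.50 in the knockout, with 5 of 6 lower. Their part in the Camkk2 and Sik3 differences was not tested. Without wild-type arrays 2 and 3, an alternative added after the data were seen, the brightest Camkk2 probe set differed by -0.15 and Sik3 by -0.24.

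Stk11, the gene of the upstream kinase LKB1, was even across the arrays. Its probe set 1418644_a_at read 9.18, 9.10, 9.13 and 9.15 in wild type and 9.17, 9.15 and 9.15 in the knockout, all within the wild-type range. The difference was 0.013 ± 0.044 (SE), with an interval of -0.086 to 0.11. A dimmer probe set, 1448062_at, differed by 0.13 ± 0.088 (SE).

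Prkaa2 encodes the alpha2 catalytic subunit, which is prominent in neurons, and Prkaa1 encodes alpha1. The Prkaa2 probe set 1434766_at read 8.19, 8.33, 8.27 and 8.15 in wild type and 8.12, 8.03 and 8.26 in the knockout, with overlap, a difference of -0.10 ± 0.072 (SE) (limma, adjusted p = 0.651). Single arrays moved this value, to -0.16 when knockout array 3 was left out, -0.065 when wild-type array 2 was and -0.044 when knockout array 2 was. Probe set 1429463_at read 8.17, 8.24, 8.07 and 8.16 against 8.03, 8.04 and 8.05. The groups did not overlap, by a gap of 0.015, and the difference was -0.12 ± 0.057 (SE) with an interval of -0.25 to 0.0094 (limma, adjusted p = 0.497). The dimmer 1429464_at, designed on the same accession, differed by 0.0067 ± 0.080 (SE). Prkaa1 had a single probe set, which read 8.04, 8.05, 7.96 and 7.91 against 7.96, 7.83 and 8.14. Knockout arrays 2 and 3 were its lowest and highest values, and the difference was -0.012 ± 0.080 (SE) with an interval of -0.19 to 0.17.

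The scaffolding and nucleotide-binding subunits lay slightly above 0 in their brightest probe sets. Prkab1, the beta1 gene, read 8.14, 7.95, 7.87 and 7.76 in wild type and 8.07, 8.11 and 7.98 in the knockout, a difference of 0.13 ± 0.090 (SE), and its other probe set differed by 0.082 ± 0.079 (SE). Wild-type array 1 was above every knockout array for Prkab1. Prkab2, the beta2 gene, read 8.82, 8.77, 8.86 and 8.97 against 8.88, 9.00 and 8.92, a difference of 0.083 ± 0.060 (SE), and its other probe sets differed by -0.0022 and -0.019. Prkag1, the gamma1 gene, read 9.49, 9.40, 9.57 and 9.50 against 9.60, 9.55 and 9.56, a difference of 0.082 ± 0.049 (SE), and its other probe set by -0.00078. All of these groups overlapped. Leaving out 1 array moved the brightest Prkab1 probe set to 0.070 (wild-type array 4) or 0.20 (wild-type array 1). It took Prkab2 down to 0.051 (knockout array 2) or 0.055 (wild-type array 2) and up to 0.12 (wild-type array 4). Prkag1 went down to 0.054 (wild-type array 2) and up to 0.11 (wild-type array 3). The Prkab2 difference was 0.15 in males and -0.0070 in females. Adjusted p-values of the 7 beta and gamma probe sets ran from 0.572 to 0.998 (limma).

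**Figure D4:**
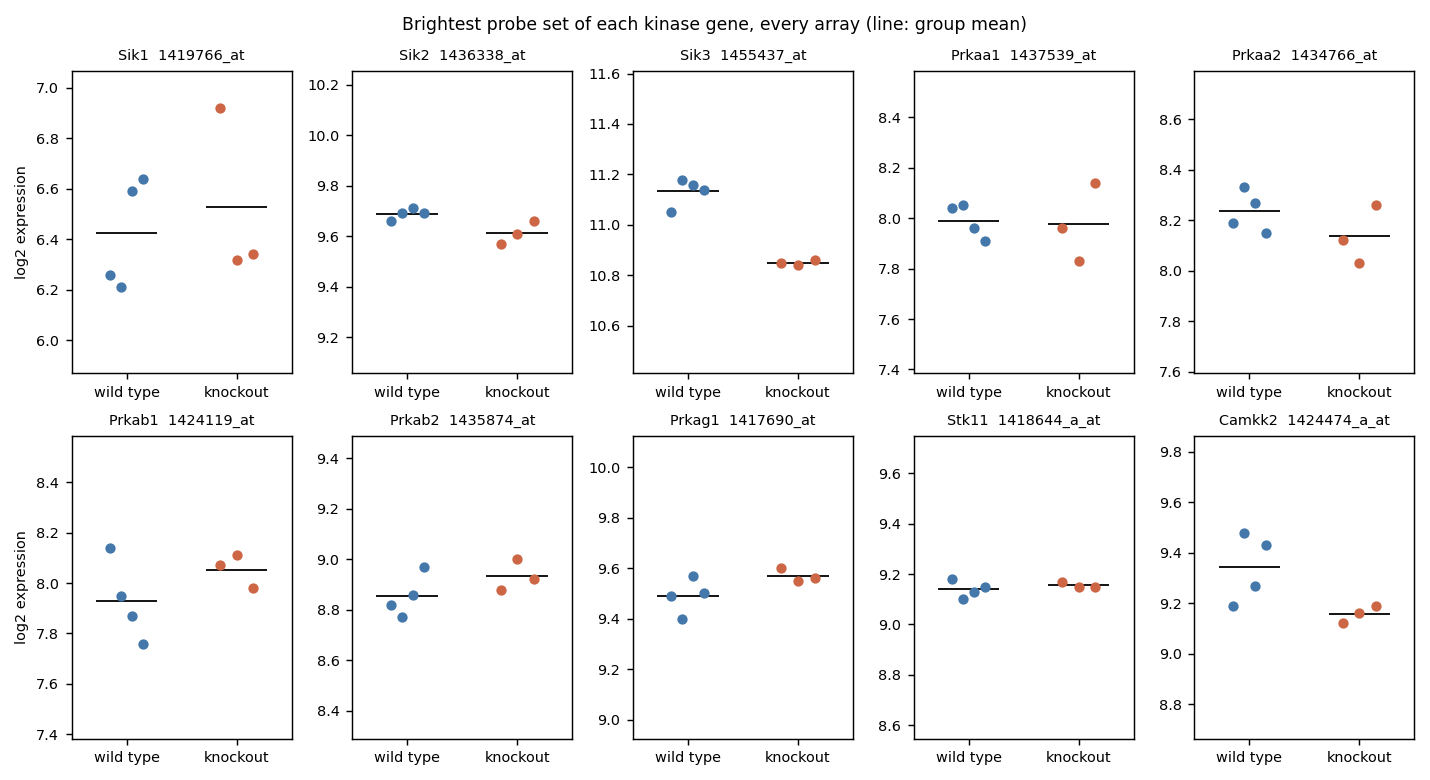
Log2 expression (vertical axis, 1.2 log2 units high in every panel) of the brightest probe set of each of the 10 genes in the 4 wild-type and 3 knockout arrays, with the group mean as a line. The groups are clearly apart in Sik3, with a gap of 0.18, and overlap or touch in the other 9 genes.

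Over all 26 probe sets, the groups did not overlap in 4, all with the knockout below. The corresponding shares of all probe sets were 5.02% below and 6.02% above. Of the 4, the Sik2 and Camkk2 probe sets were separated by less than 0.001. After a further quantile normalization 1 probe set lay below and 1 above without overlap, and after median centring of the arrays 1 lay below. The Sik3 probe set was the one separated by more than 0.1.

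The pathway around these kinases was read from lists chosen for what their products do. Of 7 measured partners of LKB1 and AMPK, 2 lay above and 5 below 0 (median -0.034). Prkag3, a gamma subunit known from muscle and dim here, differed by -0.19 ± 0.086 (SE), the kinase gene Map3k7 by -0.14 ± 0.079 (SE) and Cab39l, a scaffold of LKB1, by 0.076 ± 0.043 (SE). Of 9 other kinases that LKB1 activates, 3 lay above and 6 below 0 (median -0.039). Brsk2, a kinase of neuronal polarity, read 10.00, 10.12, 10.04 and 10.05 in wild type and 9.93, 9.84 and 9.92 in the knockout, without overlap, and differed by -0.15 ± 0.043 (SE) (limma, adjusted p = 0.284 over genes). The microtubule affinity-regulating kinase genes Mark4 and Mark2 differed by -0.15 ± 0.066 (SE) and -0.080 ± 0.040 (SE).

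Of 7 SIK substrates, the CRTC coactivators and class IIa histone deacetylases, 1 lay above and 6 below 0 (median -0.061). Crtc1, the neuronal coactivator of CREB, read 9.42, 9.41, 9.42 and 9.44 in wild type and 9.53, 9.33 and 9.08 in the knockout. Its wild-type arrays were tight and the knockout arrays lay on both sides of them, so that the difference was -0.11 ± 0.090 (SE). Crtc3 and Hdac9 differed by -0.088 ± 0.071 (SE) and -0.10 ± 0.11 (SE).

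Of 12 measured AMPK substrates, 2 lay above and 10 below 0 (median -0.064), where 48.5% of all genes and 56% of genes with a mean of at least 8 lay below 0. Tsc2, the tuberous sclerosis protein through which AMPK restrains mTORC1, read 8.79, 8.81, 8.78 and 8.79 in wild type and 8.61, 8.58 and 8.57 in the knockout. The groups were far apart relative to their spread, and the difference was -0.21 ± 0.042 (SE) (limma, adjusted p = 0.207 over genes). Fnip1, which encodes the AMPK-binding partner of folliculin, and Flcn, which encodes folliculin, differed by -0.19 ± 0.057 (SE) and -0.10 ± 0.042 (SE), both without overlap. In these 4 lists, 0 genes passed over all genes tested (limma). At an unadjusted p under 0.05, 0 were higher and 5 lower, namely Tsc2, Fnip1, Flcn, Brsk2 and Mark4. Over all genes 5.6% were higher and 6.12% lower at that p, and 9.98% were lower among genes with a mean of at least 8, a level that all 5 exceed.

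**Figure D5:**
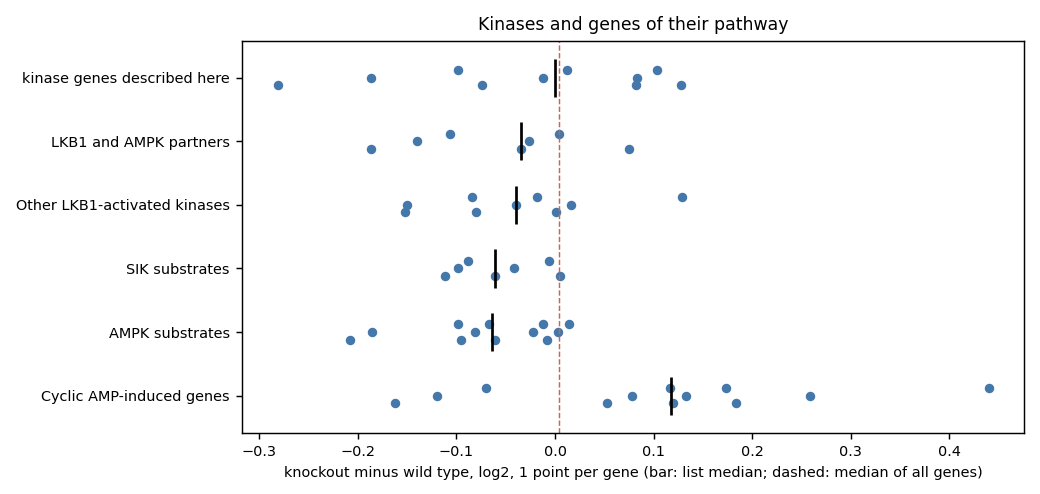
Knockout minus wild-type log2 difference (horizontal axis) of each measured gene in the kinase set and in 5 lists of its pathway (rows), with the list median as a bar and the median of all genes, 0.0036, as a dashed line. AMPK and SIK substrates lie mostly just below 0 and cyclic AMP-induced genes spread widely around a median of 0.12.

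The tissue showed its defining transcripts: Pmch lay between 13.66 and 13.97 and Hcrt between 12.02 and 12.78 over all arrays, while Nkx2-1 was dim in every array, at 5.50 to 5.80. Agrp had no probe set with a single symbol. Besides the neuronal and thalamic markers above, 6 of 7 meningeal markers were lower, with means of 6.75 to 8.24 in wild type and 6.61 to 6.86 in the knockout. Wild-type arrays 2 and 3 had the high meningeal means, 7.57 and 8.24, and wild-type arrays 1 and 4 read 6.88 and 6.75. Of 6 endothelial and mural markers 4 were lower, 3 of them at an unadjusted p under 0.05, including Pdgfrb, a growth factor receptor of pericytes, at -0.40, with means of 8.47 to 8.56 against 8.24 to 8.52. Over all genes, 48.5% lay below 0, and 5.6% were higher and 6.12% lower at that p (limma). Among genes with a mean of at least 8, 9.98% were lower at that p. Of 9 hypothalamic markers 8 were higher, 3 at that p, among them Hcrt at 0.33, with means of 9.87 to 10.29 against 10.17 to 10.27. All 6 astrocyte markers were higher, with means of 10.78 to 10.87 against 10.88 to 10.95, and all 4 blood markers were higher, with means of 4.73 to 5.08 against 4.99 to 6.52, the last in knockout array 2 and the other knockout arrays at 4.99 and 5.07. Of 5 oligodendrocyte markers 3 were higher and 2 lower, and of 7 microglial markers 3 were higher and 4 lower. At an unadjusted p under 0.05 (limma), 2 meningeal markers and 1 microglial marker, Csf1r at -0.16, were lower. At that p, 2 astrocyte markers and 1 blood marker were higher, and no thalamic or oligodendrocyte marker reached it. The part of these lists in the kinase values was not tested.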

How the data were processed

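Each of the 7 Affymetrix arrays gave 1 log2 expression value per probe set, as deposited by the authors. Per the submitters' processing notes, the tools included RMA, affy and R 2.10.0, whose settings are not stated. RMA usually equalises the intensity distributions of arrays and makes no detection calls. Of 45101 probe sets, 64 controls were left out. Probe sets with 1 symbol numbered 34945, and the one with the highest mean stood for its gene.

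Genotypes were compared with limma 3.58.1 under R 4.3.3 (lmFit and eBayes with an intensity trend, two-sided), adjusting by Benjamini-Hochberg over all probe sets or all genes, with a threshold of 0.05. The code was tested on simulated data. Differences are knockout minus wild type, with limma's SE and 95% interval. The median SE of a probe set was 0.079. Precision is limited by how few arrays there are. The members and gene lists were chosen with earlier results of these data known. Named genes are all members, up to 3 genes per pathway list by smallest p, and the 5 genes nearest in profile to Sik3 and to Sik1. Fos, Pdgfrb and the hypothalamic markers were named after their values were seen. Alternatives changed the variance model, array weights, normalization, sex term, choice of probe set, dim-value filter and the arrays included. The deviations of same-numbered arrays of the 2 genotypes from their group means correlated over genes (r = 0.318, 0.101 and 0.143 for numbers 1 to 3). The pairing used for the replicate block was taken from these correlations. Differently numbered arrays were not set beside them, so that pairing by number is not shown. The labels state no pairing. Same-numbered arrays also shared their sex, and the part of sex in these correlations was not tested. Figures were drawn with matplotlib 3.10.9.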

Additional observations from a re-analysis of the deposited data

Results flagged for a closer look

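In the dim Camkk2 probe set 1424476_at, wild-type array 4 read 3.91, far from the other wild-type arrays, the next of which read 3.49. Its gap took up 0.927 of the group's range, above Dixon's 95% critical value for 4 samples. It was the single such case among the 26 wild-type groups examined, and chance gives about 5%.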

How the results depend on the processing

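Members past the threshold numbered 0 in the main analysis and in the other settings, except without wild-type array 1, where Sik3 alone passed and calls over all probe sets rose from 3 to 46. Leaving out 1 array in turn gave 0 to 1 such probe sets, 2 to 5 at an unadjusted p under 0.05, 4 to 8 without overlap, and a median over genes of -0.039 to 0.034. In these settings, 8.3% to 12.7% of all probe sets reached that p and 14.7% to 21% did not overlap. The count at an unadjusted p under 0.05 was 4 with all arrays, where 10.6% of all probe sets reached that p. It was 2 without knockout array 1 (10.3% of all probe sets), and also 2 without wild-type arrays 2 and 3 (5.82%). The count without overlap was 2 after quantile normalization (10.7% of all probe sets), 1 after median centring (10.9%), 7 over the arrays numbered 1 to 3 (14.7%), which is the analysis without wild-type array 4, and 8 without wild-type array 1 (19%), against 11% with all arrays. Smaller groups separate more often, so that the higher counts are in part set by the number of arrays. With the replicate block over those arrays, 0 members passed and 3 reached an unadjusted p under 0.05 (9.89% of all probe sets). Sik3 then differed by -0.28 (limma, adjusted p = 0.378). The pairing changed no call. Core letters were in 2 promoters within 150 bases before the start.

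Signs turned for Prkaa1, Stk11 and Sik1, which differed by -0.012, 0.013 and 0.10 in the main analysis. Prkaa1 was at 0.0014 after quantile normalization, at 0.0033 without wild-type arrays 2 and 3, and between -0.094 and 0.062 with an array left out. Stk11 was at -0.014 without wild-type arrays 2 and 3 and between -0.00080 and 0.026 with an array left out, and Sik1 between -0.10 and 0.21. Set against the second brightest probe set alone, the excess of the brightest was -0.087 for Sik2, 0.021 for Prkaa2 and 0.017 for Camkk2. The main values, against the mean of the other probe sets, had the opposite sign, at 0.076, -0.042 and -0.10. That of Camkk2 had the same p as that of Sik3 (exact permutation test, p = 0.0571, adjusted p = 0.257). The excess for Sik1 lay between -0.16 and 0.13 with an array left out. The cause of these changes was not tested. The other 7 genes kept their sign in all 18 settings each. With no detection call, the dim probe sets of Sik1, Sik2 and Camkk2 limit what their sizes show.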
